A study of Allium sativum with 84 samples.

Results

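Garlic accessions collected in the eastern Mediterranean were compared with accessions collected in Canada, to see how far garlic from outside China is alike in the bulb. The members were taken by the country given as collection site in the labels. They were 5 accessions for the eastern Mediterranean, namely 2 from Greece and 1 each from Israel, Turkey and Eygpt, as the label spells Egypt, and 5 from Canada, together 10 of 84 accessions. The 68 accessions from China and the 6 from other countries served only as a background. All were grown on the same farm in Shandong, with no treatment named in the labels, planted in autumn, and bulbs in the phase of enlarging growth were sampled in spring, with 3 bulbs per accession in the labels. Total bulb RNA was sequenced, with 1 library per accession, and transcript abundance was given as FPKM, that is, fragments per kilobase of a gene in relation to the total of its library. The replicates of an area are therefore different accessions, numbered here in accession order only. A p-value measures the areas against the spread among accessions, which includes their genetic differences. Genetic groups were not compared, because the labels do not give them, so area and genetic group were not separated. All 84 samples also carry the same source name, that of a single variety, which is at odds with their being different accessions, and the titles and collection sites were followed here. For Greece replicate 2, the label and a supplementary table give Greece but another supplementary table gives Xinjiang in China, so this accession may not be from outside China, and results without it are reported below.

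Cultivated garlic is sterile and is propagated from cloves, so an accession is maintained as a clone and differences between accessions are carried from bulb to bulb. The bulb is formed from axillary buds that swell into storage cloves. In onion and potato, the formation of the storage organ responds to day length through proteins of the FLOWERING LOCUS T (FT) family. Clock genes such as EARLY FLOWERING 4 (ELF4) and the CDF transcription factors act upstream of FT in Arabidopsis. Gibberellins, whose signalling is repressed by DELLA proteins such as rice SLR1, act on the same process, while TB1-type transcription factors and auxin govern the outgrowth of buds. The table does not pair gene IDs with names or sequences, and names are given only to the 14 genes named by the study.

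Depth was uneven among the Canada libraries, and 3 of the 10 libraries call for care on other grounds. Relative depth, with the deepest of the 10 at 1, was 0.910 in Canada replicate 1 and 1 in Canada replicate 5, and 0.485 to 0.579 in the other 8. It averaged 0.539 ± 0.030 in the Mediterranean (SD, n = 5) and 0.686 ± 0.248 in Canada (SD, n = 5), a difference that did not pass the test (exact permutation test, two-sided, p = 0.413). A library held 31485 to 35379 genes above 0 FPKM. The first library that stood apart was that of Turkey, which was further from the other Mediterranean accessions than these were from each other. The second was Canada replicate 4, with the most genes above 0 FPKM of the 10. Its profile correlated at r = 0.972 with the averaged FPKM of Shandong replicate 4 and Canada replicate 3, but with no single accession above 0.931. This gain of 0.0410 was the largest among the 84 accessions, since for the other 83 the best mean of a pair of accessions gained between -0.00996 and 0.0322 (median 0.00625) over the best single accession. Whether this library holds material of more than 1 accession was not tested. The third was Canada replicate 1, by its position in the deposited table. Among the 68 accessions from China, the division into 16 in columns up to 23 and 52 after it accounted for 8.46% of the variance, where 1.49% is expected with no difference between them. This division was taken from earlier results, and whether the accessions on either side also differ in origin or genetic group was not tested. All 5 Mediterranean accessions and Canada replicate 1 stand after column 23, and the other 4 Canada accessions stand up to it. The labels give no batch, so column order and area can be told apart only through Canada replicate 1.

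The transcriptomes of the Mediterranean accessions were more alike than those from Canada, and the Turkey accession was the exception. On the log2(FPKM + 1) scale, over the 28108 genes that reached 1 FPKM in no fewer than 4 of these accessions, Pearson's r across genes ran from 0.907 to 0.955 for the 6 pairs among Greece, Israel and Eygpt. Turkey correlated with these 4 accessions at only 0.755 to 0.798. It correlated with the Canada accessions at 0.720 to 0.829, so that both ranges overlapped, and its highest value was with Canada replicate 1. The Canada accessions correlated among themselves at 0.705 to 0.914, and only replicates 3 and 4 exceeded 0.85. Pairs between the areas lay at 0.681 to 0.832. Genes are not independent replicates, so these values describe the libraries.

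**Figure D1:**
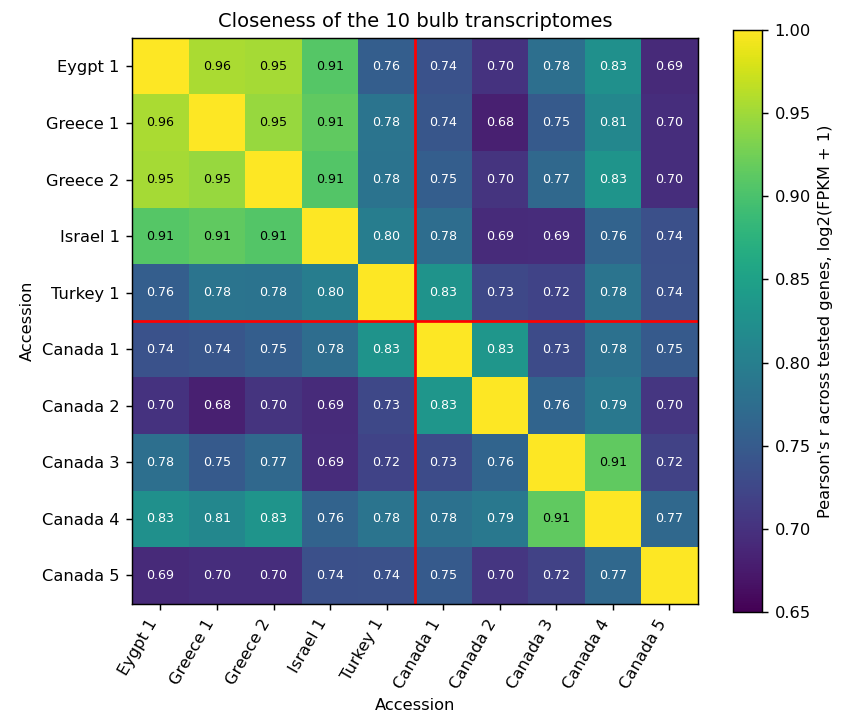
Pearson's r across the 28108 tested genes for each pair of the 10 accessions, on the log2(FPKM + 1) scale. The red lines part the areas. The Greece, Israel and Eygpt accessions form 1 bright block of 0.91 to 0.96, Turkey lies outside it, and within Canada only replicates 3 and 4 are as close.

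The mean r within the Mediterranean was 0.870, against 0.745 between the areas. A difference as large as 0.125 was rare over the 252 relabellings of the 10 accessions (exact permutation test, two-sided, p = 0.00794, adjusted p = 0.0119 over 3 tests of this kind). The observed labels were not the only ones to reach it. With Greece, Israel and Eygpt, Canada replicate 4 had a mean r of 0.808, above the 0.780 of Turkey. The mean r within Canada was 0.775, and the difference of 0.0302 from the pairs between the areas did not pass the test (exact permutation test, two-sided, p = 0.294, adjusted p = 0.294). It did at a pseudocount of 0.1, which weighs low genes more (difference 0.0796, exact permutation test, p = 0.0357). The division by area, from which genetic group was not separated, held 27.7% of the expression variance, where 11.1% is expected with no difference (exact permutation test, one-sided, p = 0.00794, the smallest that this design allows, adjusted p = 0.0119). The share was 24.3% to 35.3% when each accession was left out in turn, and was highest without Turkey.

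The same contrast was seen in the spread of single genes. The median SD of a tested gene within the Mediterranean was 0.44 on the log2 scale, 0.73 within Canada and 0.29 among Greece, Israel and Eygpt. The SD was larger within Canada for 75.7% of the genes. On the first principal component of the 10 accessions, which held 32.6% of the variance, the Greece, Israel and Eygpt accessions had scores of -116.5 to -89.6. The Canada accessions had scores of 21.8 to 122.5, and Turkey, at 32.7, lay among them.

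For 3 of the 10 accessions the most similar profile came from their own area. Over the 36007 genes that reached 1 FPKM in no fewer than 4 of all 84 accessions, the most similar of the other 83 was from China for 6 of the 10, and from the opposite area for 0 of the 10. Of these 83, 68 were from China and only 5 from the opposite area, with fewer still from the own area. The counts are to be read against these numbers and were not tested. Greece replicate 1 was closest to Xinjiang replicate 8 (r = 0.974) and Israel to Xinjiang replicate 6 (r = 0.954), while Eygpt was closest to Greece replicate 1 (r = 0.966) and Greece replicate 2 to Eygpt (r = 0.964). Turkey was closest to the accession labelled Amrica (r = 0.920), and 34 of the 68 accessions from China were closer to it than any from its own area. In Canada, replicate 3 was closest to replicate 4 (r = 0.925). Replicates 1, 2 and 4 were closest to accessions from China at r = 0.940, 0.922 and 0.931. Canada replicate 5 had no close partner, and its highest value was 0.856, with Gansu replicate 2. These correlations share the depth and the common expression level of each library and carry no test.

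Of the 28108 tested genes, 1687 (6.0%) differed between the areas in limma with Benjamini-Hochberg adjustment at 0.05. Of these, 1076 (3.83% of the tested genes) were higher in the Mediterranean and 611 (2.17%) were lower. In all, 6662 genes had an unadjusted p under 0.05. The whole distribution was shifted, with a median log2 change of 0.21 over all tested genes. Median-ratio scaling, which brings the median genes of the libraries to the same level, reduced that median to 0.015 and gave 1591 calls (5.68%) with 763 higher and 828 lower. The excess of higher genes therefore depended on the scaling. The fitted log2 change is on the log2(FPKM + 1) scale and understates that of low genes. Bulk RNA was measured, so fewer cells of a type and less RNA per cell cannot be told apart. Which of several near-identical gene copies a read came from is uncertain, as the counting program was not given in the sources used here.

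**Figure D2:**
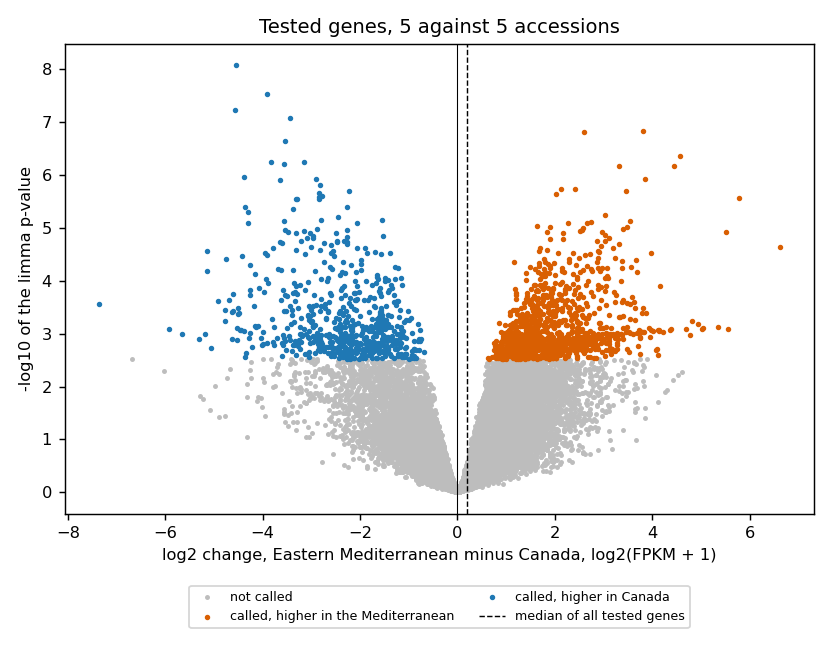
Log2 change, Mediterranean minus Canada, against the −log10 of the unadjusted limma p-value for the 28108 tested genes. Coloured points are the 1687 called genes, and the dashed line marks the median of all genes, which lies above 0.

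The called differences were large, but with this spread and 5 accessions per area small changes were unlikely to pass the threshold. The smallest called change was 0.63 log2. Of the called genes, 265 were listed at 0 in every accession of one area, so that no fold can be given for them. These passed the filter on low values through the other area alone. For the other 1422, 1346 differed by over 2-fold. Their median log2 change was 1.76 for the 906 that were higher and -2.27 for the 516 that were lower. The values of the areas did not overlap in 1065 called genes, and in 2067 of all tested genes (7.35%), with the Mediterranean above in 1445 (5.14%) and below in 622 (2.21%). At the other end, the 95% interval of the change lay within 1 log2 of 0 for 6651 genes (23.7%). On the log2(FPKM + 1) scale this bounds the change to about 2-fold only for genes well above 1 FPKM. For low genes a larger fold can lie within the interval. The median width of that interval was 1.81 log2. For most genes these 10 accessions thus neither placed a change past the threshold nor bounded it within 1 log2 on this scale.

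The number of calls depended on which accessions were fitted, and in opposite ways for the single libraries. Without Turkey 3533 genes were called, of which 1642 were among the 1687. Without Eygpt, Greece replicate 1, Greece replicate 2 or Israel, in turn, only 224 (without Greece replicate 1) to 290 (without Eygpt) were called. Without Canada replicate 2, 3 or 4 the count was 621, 705 and 841, and without Canada replicate 1 or 5 it was 1301 and 1350. Without both Turkey and Canada replicate 4, a choice made after the data were seen, it was 3215. With the position before or after column 23 as a covariate, only 0.438% of the tested genes were called, 15 higher and 108 lower, and 35 of them were among the 1687. That fit compares the areas through Canada replicate 1 alone.

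An accession left out of the fit gives a view of the area difference that its own values did not shape. Genes were called without it, and the share in which it lay nearer to the mean of its own area was counted. Greece replicate 1 lay on the Mediterranean side in 224 of 224 such genes (100%, against 73.5% of all tested genes). For Greece replicate 2 the share was 94.8%, for Eygpt 92.4% and for Israel 91.9%, with 67.8% to 72.4% of all tested genes. Turkey went the other way. It lay on the Mediterranean side in only 1161 of 3533 genes (32.9%, against 51.0% of all tested genes), and thus on the side of Canada in most of the genes that set the other 4 accessions apart. The Canada accessions lay on their own side in 61% (replicate 1), 81% (replicate 2), 74.5% (replicate 3), 71.0% (replicate 4) and 62.5% (replicate 5) of the genes, against 51.7% to 61.6% of all tested genes.

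Of the 14 bulb growth genes named by the study, 12 passed the filter on low values. Of these, 1 was higher in the Mediterranean, 0 were lower and 11 did not pass the test, while 6.0% of all genes were called. Their median log2 change was 0.097, against 0.21 over all tested genes. The study chose these genes partly on the series to which the 10 accessions belong, so the list is not independent of them.

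The gene that passed was Asa6G06199.1, the FT-like gene that the study describes as the ortholog of an onion FT gene, which belongs to the photoperiod group. FPKM were 24 in Eygpt, 14.6 and 15.7 in Greece, 23.9 in Israel and 8.5 in Turkey. In Canada they were 2.18, 0.606, 3.32, 11.6 and 1.62 for replicates 1 to 5. Of the 5 Mediterranean accessions 4 lay above every Canada accession, and the areas overlapped only through Turkey and Canada replicate 4. The means were 17.3 ± 6.6 FPKM (SD, n = 5) and 3.86 ± 4.43 (SD, n = 5), and the log2 change was 2.21 ± 0.53 (SE, limma adjusted p = 0.0384). A median of 23 reads stood behind a value in Canada. The call lay near the threshold. It was lost when any accession other than Turkey or Canada replicate 4 was left out (adjusted p from 0.0592 to 0.113), when the Greece accessions were averaged (adjusted p = 0.104), and with the column position as a covariate (log2 change 2.44, adjusted p = 0.278). Over all 20 alternatives the log2 change stayed between 1.44 and 2.86. In China the level ran from 0 to 24.9 FPKM with a median of 4.11, and 12 of the 68 accessions lay above the lowest Mediterranean value. In the fit of 84 accessions the change against China was 1.72 ± 0.40 (SE, limma adjusted p = 7.5e-04) for the Mediterranean and -0.49 ± 0.40 (SE, limma adjusted p = 0.581) for Canada. Both contrasts share the accessions from China.

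The other photoperiod genes did not pass. Asa2G00681.1, the ELF4-like gene, had 14.1, 22.7, 12.4, 10.3 and 14.4 FPKM in Eygpt, Greece replicates 1 and 2, Israel and Turkey. It had 82.9, 223, 12.1, 43.0 and 37.6 FPKM in Canada replicates 1 to 5. All 5 Mediterranean accessions lay below the median of Canada, but Canada replicate 3 lay among them. The log2 change was -1.79 ± 0.62 (SE, limma adjusted p = 0.107), with an adjusted p of 0.0422 without Canada replicate 3 (log2 change -2.30) and of 0.0129 in the fit of all 84 accessions. Against China (median 35.9 FPKM) it was lower in the Mediterranean, with a change of -1.27 ± 0.39 log2 (SE, limma adjusted p = 0.0143), and in Canada the change was 0.52 ± 0.39 (SE, limma adjusted p = 0.529). Asa8G01471.1, homologous to CDF2, ran from 10.3 to 21.9 FPKM in the Mediterranean and from 0.760 to 36.0 in Canada (log2 change 0.29 ± 0.68 SE, limma adjusted p = 0.837). Asa2G04763.1, similar to the bZIP factor TGA4, ran from 12.2 to 36.2 and from 0.600 to 39.2 FPKM (log2 change 0.49 ± 0.78 SE, limma adjusted p = 0.747). Both genes were lowest in Canada replicate 5. The second TGA4-like gene, Asa6G01159.1, was under the filter, with at most 2.0 FPKM in the Mediterranean and 6.2 in Canada.

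Among the gibberellin genes, Asa2G00237.1 encodes the SLR1-like DELLA protein. Its FPKM were 14.7 in Eygpt, 9.12 and 11 in Greece, 11.4 in Israel and 6.69 in Turkey, and 8.73, 1.68, 7.82, 4.52 and 4.07 in Canada replicates 1 to 5. Turkey was again the lowest Mediterranean accession, and lay below Canada replicates 1 and 3. The log2 change of 0.96 ± 0.39 did not pass the test (SE, limma adjusted p = 0.161). The Mediterranean was higher than China, whose median was 1.55 FPKM, by 1.98 ± 0.33 log2 (SE, limma adjusted p = 2.2e-06), and only 7 of the 68 accessions from China reached the level of Turkey. The change of Canada against China was 1.02 ± 0.33 log2 (SE, limma adjusted p = 0.0711).

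The BEL5 ortholog Asa6G01110.1, named after a potato gene of tuber formation, had 53.1 to 165 FPKM in the Mediterranean and 28.2 to 138.9 in Canada. Its log2 change of 0.28 had a 95% interval of -0.73 to 1.29. Asa0G05638.1 is 1 of a pair of genes that the study names GA 20-oxidase, an enzyme commonly known for the synthesis of gibberellins. It was among the abundant transcripts, at 1104 to 3461 FPKM in the Mediterranean and 849 to 3464 in Canada, with a log2 change of 0.11 (95% interval -1.03 to 1.26). For neither gene do these accessions exclude a 2-fold difference. The other GA 20-oxidase gene, Asa4G02474.1, had at most 0.370 FPKM in any of the 10 and was not tested.

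None of the 4 tested genes of bud outgrowth and auxin passed, and their log2 changes ran from -0.74 to 0.081. The TB1-like Asa2G00245.1, of the family that represses bud outgrowth in maize and rice, had 0.697 to 3.27 FPKM in the Mediterranean and 0.165 to 3.28 in Canada (log2 change 0.081 ± 0.43 SE, limma adjusted p = 0.932). The YUCCA-like Asa2G02184.1, of the family of auxin synthesis enzymes, had 0.646 to 1.82 and 0.823 to 8.53 FPKM. All 5 Mediterranean accessions lay below the Canada median, yet the change of -0.74 ± 0.43 did not pass (SE, limma adjusted p = 0.329). The TOPLESS-related Asa4G00255.1, of a family of transcriptional co-repressors, and the AXR1-like Asa2G00503.1, of auxin signalling, had adjusted p-values of 0.520 and 0.504. Asa2G00253.1, which the study prints in place of another ID, had 226.7 FPKM in Canada replicate 5, 55.6 in replicate 1 and at most 16.6 in the other 8 accessions (limma adjusted p = 0.382).

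**Figure D3:**
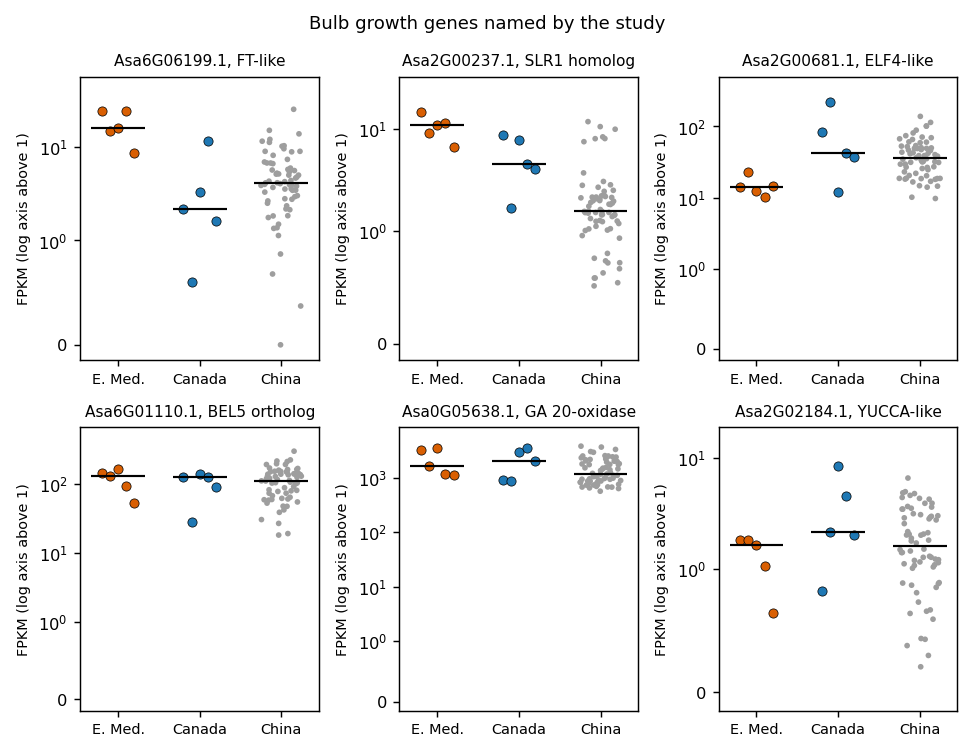
FPKM of 6 study-named genes in the 5 Mediterranean, 5 Canada and 68 China accessions, 1 point per accession, with the median as a bar (axis linear below 1 and logarithmic above). For the FT-like gene 4 of 5 Mediterranean accessions lie above every Canada accession, and for the other 5 genes, which did not pass the test, the areas overlap.

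The largest changes by the fitted values were of genes without a name in the table. Asa0G04215.1, on a sequence not placed on a chromosome, had 259.4, 232.5, 173.8, 248.1 and 156.5 FPKM in Eygpt, Greece replicates 1 and 2, Israel and Turkey. It was listed at 0 in 4 Canada accessions and at 42.5 FPKM in Canada replicate 4. Turkey here lay with its own area. The log2 change was 6.63 ± 0.95 (SE). The gene passed the filter through the Mediterranean accessions and was picked for its size, so no p-value is given. With the column position as a covariate the log2 change was 7.72 and the gene was not called. In China 41 of 68 accessions were listed at 0 and the highest had 194 FPKM.

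Asa2G05822.1, on chromosome 2 by its ID, showed the largest fall. Its FPKM were 0.381 in Eygpt, 21.5 and 129.7 in Greece, 8.09 in Israel and 1.24 in Turkey, and 3022, 16041, 2466, 534 and 156 in Canada. The areas did not overlap, but within each of them the level varied by over an order of magnitude. The log2 change was -7.36 ± 1.41 (SE, limma adjusted p = 0.0216), and the call was lost without Eygpt, Greece replicate 1 or Israel (adjusted p from 0.0568 to 0.0595). It was also lost with the column position as a covariate (log2 change -8.29), a fit that compares the areas through Canada replicate 1 alone. The accessions from China ran from 0.183 to 6931 FPKM, across both areas except for the highest value of Canada. Asa6G00868.1, on chromosome 6, had 27.3, 4.54, 28.3, 3.41 and 102 FPKM in the Mediterranean and 43.7, 3046, 5465, 3250 and 721 in Canada. Canada replicate 1 lay below Turkey, while the other 4 Canada accessions lay above the whole Mediterranean. Its change of -5.93 ± 1.3 log2 (SE, limma adjusted p = 0.0333) fell to -1.28 with the column position as a covariate (adjusted p = 0.675). The call was also lost when any single Mediterranean accession but Turkey, or Canada replicate 2, 3 or 4, was left out (adjusted p from 0.0600 to 0.101).

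Presence and absence parted the areas in a small set of genes. Turkey lay with the Mediterranean in them by the rule of choice, which asked for all 5 accessions. In 15 of the 28108 tested genes all 5 Mediterranean accessions had at least 1 FPKM and all 5 Canada accessions were listed at 0. In 36 genes the reverse held. These genes were chosen on their values, so their counts are a description. The 15 had Mediterranean means of 2.36 to 74.6 FPKM and the 36 had Canada means of 1.47 to 25 FPKM. With 0.5 FPKM in place of 1 the counts were 23 and 52. The sets depended on single accessions. Without Turkey they grew to 226 and 264 genes, since Turkey was listed at 0 in 86.7% of the former and had at least 1 FPKM in 81.4% of the latter. Without Canada replicate 3, 4 or 5 the total of 51 became 96, 80 and 103. Of the 42 genes on in the Mediterranean without Canada replicate 4, that accession had at least 1 FPKM in 23.

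The genes given here were chosen for being at 0 in one area, so no p-value is given for them. The most abundant of the 15 was Asa4G02880.1, on chromosome 4, with 106.6, 84.5, 64.4, 110.98 and 6.58 FPKM in Eygpt, Greece replicates 1 and 2, Israel and Turkey. A median of 1030 reads stood behind these values, and the gene was also listed at 0 in 64 of the 68 accessions from China. Asa7G00910.1, on chromosome 7, had 26.2, 26.4, 20.7, 19.9 and 1.77 FPKM. In both genes Turkey had the lowest Mediterranean level, below every other by a wide margin. On the side of Canada, Asa2G02948.1 had 12.3, 15.1, 40.5, 33.8 and 23.2 FPKM in replicates 1 to 5. Its log2 change was -4.57, and -3.73 with the column position as a covariate, a fit that compares the areas through Canada replicate 1 alone. Asa2G00300.1 had 13.8, 30, 49.7, 25.6 and 3.79 FPKM. Both lie on chromosome 2, and both were listed at 0 in the 5 Mediterranean accessions and in only 4 of the 68 from China.

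**Figure D4:**
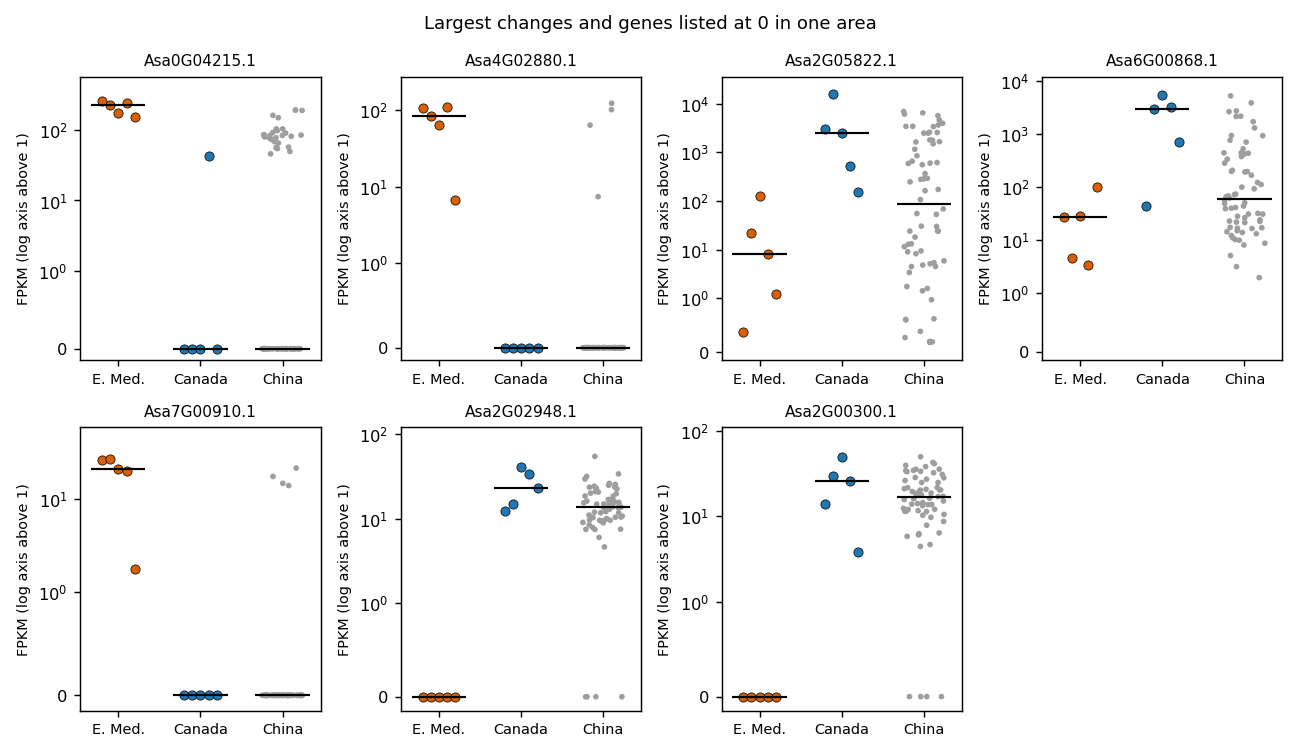
FPKM of the genes with the largest fitted changes and of the most abundant genes listed at 0 in one area, 1 point per accession with the median as a bar (axis linear below 1 and logarithmic above). Genes on in the Mediterranean are listed at 0 in most accessions from China, and the reverse holds for the genes on in Canada, which 64 of 68 accessions from China share.

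The 74 accessions that did not take part in choosing these genes could be placed by them. The 36 genes on in Canada were above 0 FPKM in 42 to 65 of the 68 accessions from China (median 64), and the 15 genes on in the Mediterranean in 4 to 33 (median 9). Of all tested genes, 79.6% were above 0 FPKM in all 10 accessions compared, so presence in most accessions is common. The matching share in China was not counted, and 64 of 68 is not read as particular to the 36 genes. Across the 74 accessions, 5 carried 14 or 15 of the 15 Mediterranean genes and 1 to 5 of the 36 Canada genes. They were Xinjiang replicates 3, 6 and 8, Shanxi replicate 2 and the accession labelled Amrica. The other 69 carried 0 to 6 (median 2) of the former and 28 to 36 (median 36) of the latter, and no accession lay in between. The limit of 5 genes was set after these values were seen. The 5 include the closest partners of Greece replicate 1, Israel and Turkey.

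**Figure D5:**
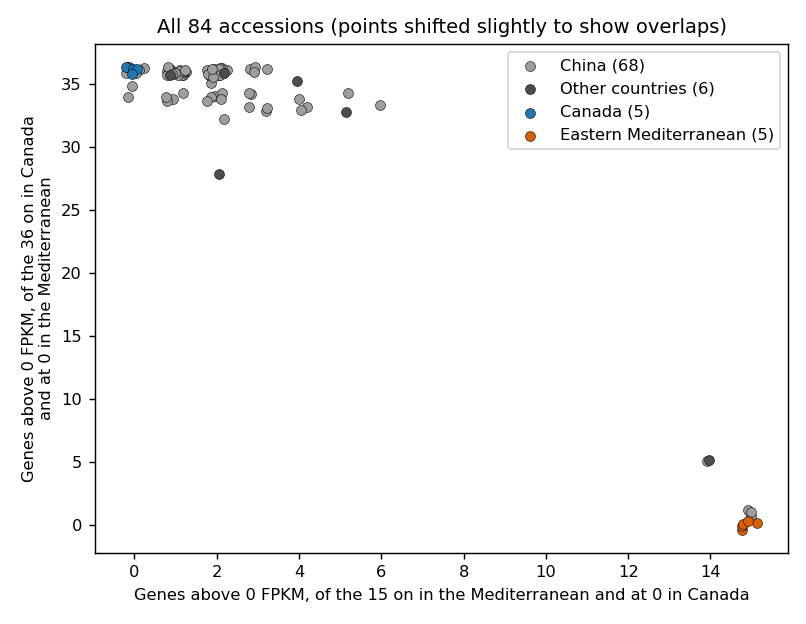
Number of genes above 0 FPKM in each of the 84 accessions, out of the 15 on in the Mediterranean and at 0 in Canada (horizontal) and the 36 with the reverse pattern (vertical). The 10 accessions that defined the genes sit at the corners by construction, and the other 74 fall into a set of 69 at the upper left and a set of 5 at the lower right.

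In the genes called between the areas, the accessions from China lay mostly on the side of Canada, but over whole profiles neither area was uniformly closer to them. The highest r of an accession with any from China was 0.918 to 0.974 in the Mediterranean and 0.856 to 0.940 in Canada. The median r with the 68 was 0.816 to 0.845 in the Mediterranean, and in Canada it ran from 0.782 (replicate 5) to 0.877 (replicate 1). For 1360 of the 1687 called genes (80.6%) the median of the 68 accessions from China was on the side of Canada, against 54% of all tested genes. At least 90% of the accessions from China were on that side in 506 called genes (30%, against 4.97% of all tested genes). They were on the side of the Mediterranean in 1 called gene (0.059%, against 0.968% of all tested genes). In the fit of all 84 accessions, 5217 of 36007 genes (14.5%) differed between the Mediterranean and China, 2629 higher (7.30%) and 2588 lower (7.19%). Between Canada and China 924 (2.57%) differed, 340 higher (0.944%) and 584 lower (1.62%). With median-ratio scaling the Canada contrast gave 945 calls, 752 of them higher and 193 lower, so that its direction depended on the scaling. It also depended on single accessions, with 1710 calls without Canada replicate 1 and 279 without Canada replicate 3. The contrast of the Mediterranean fell to 3455 calls without Greece replicate 1. Each contrast rests on 5 accessions and on the same 68 from China, and the spread within Canada was larger, as given above. The difference between both counts was not tested.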

How the data were processed

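Bulb RNA from 84 accessions was sequenced, and the 5 eastern Mediterranean and 5 Canada accessions were compared. The authors removed low-quality reads and used HISAT2, version 2.2.1.0 by the submitters' processing notes, to align the rest to a garlic reference genome. The deposited values are FPKM per gene, computed by the authors. Neither the counting program nor the scaling total is given in the sources used here. The study and the labels differ in the number of accessions and of pooled plants, and this could not be settled. Since these are not counts, count models were left out.

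On the log2(FPKM + 1) scale, each gene that reached 1 FPKM in no fewer than 4 fitted accessions was tested two-sided in R 4.3.3 by limma 3.58.1, whose variance prior followed the mean level, with Benjamini-Hochberg adjustment over all tested genes at 0.05. This keeps the study's design, which compared groups gene by gene with no covariate. Single values over accessions were tested by exact permutation of the 10 labels. Relative depth was recovered from the steps that single reads leave in low FPKM values. For a gene, the largest step was taken at which every library above 0 lay within 0.05 of a whole number of reads. Closeness to whole numbers is therefore part of the rule and gives no check of the recovered reads. The study reports mapped reads for each accession, but these were not used here. Reads behind a value are counts of such steps and were not checked against absolute depth. An exact 0 is described as listed at 0.

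Alternatives were a pseudocount of 0.1, no filter, a mean of at least 5 FPKM, median-ratio and quantile scaling, accession weights, the column position (up to or after column 23) as a covariate, a fit of all 84 accessions, averaging the Greece accessions and leaving out each accession. Named genes are 14 from the study, the 2 called genes of largest rise and of largest fall with a mean of at least 1 FPKM, and the 2 most abundant in each direction among genes at 0 in one area. The members, lists and rules were chosen with earlier results of these data known. Genetic groups, which the study gives in a supplement, were not used, since groups follow the labels. Other software was Matplotlib 3.10.9, SciPy 1.17.1, pandas 2.3.3, NumPy 2.4.6 and Python 3.11.15.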

Additional observations from a re-analysis of the deposited data

Results flagged for a closer look

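Among the named genes, the value of 1 accession lay far from the other 4 of its area in 6 of 38 sets of 5 values, judged by the gap to the nearest value as a share of the whole range of log2(FPKM + 1), for which the limit is 0.71. For normal values chance gives about 1 such case in 20 sets. These sets include genes chosen for large differences and values mostly at 0, to which that rate need not apply. In the Mediterranean both cases were Turkey, with 6.58 FPKM of Asa4G02880.1 (share 0.800) and 1.77 FPKM of Asa7G00910.1 (share 0.881), each far below the other 4. In Canada, replicate 4 was the only accession above 0 for Asa0G04215.1, with 42.5 FPKM (share 1). Replicate 2 was low for the BEL5 ortholog Asa6G01110.1, with 28.2 FPKM (share 0.727), and high for the weakly expressed GA 20-oxidase gene Asa4G02474.1, with 0.370 FPKM (share 0.784). Replicate 5 was low for the TGA4-like Asa2G04763.1, with 0.600 FPKM (share 0.768).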

How the results depend on the processing

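The share of tested genes that were called (6.0%) was 1.51% without a filter, 2.15% with a mean of at least 5 FPKM, 1.05% with the Greece accessions averaged, 0.438% with the column position as a covariate, 14.98% in the fit of 84 accessions, 23.3% with accession weights and 12.1% without both Turkey and Canada replicate 4. Leaving out 1 accession gave 0.823% to 12.8%, which is 224 to 3533 genes. In numbers of genes the others came to 653 without a filter, 410 with the higher mean, 285 with Greece averaged, 4210 in the fit of 84 accessions and 6541 with weights. Of the 12 tested study-named genes, 1 was called, against 3 with accession weights (the FT-like Asa6G06199.1, the DELLA gene Asa2G00237.1 and the YUCCA-like Asa2G02184.1), 2 in the fit of 84 accessions and 0 with no filter, with a mean of at least 5 FPKM, with the column position or with the Greece accessions averaged. Leaving out 1 accession gave 0 to 1. Without Canada replicate 3 the called gene was the ELF4-like Asa2G00681.1 in place of the FT-like gene. Of the 7 genes named by the rule, 1 was called with the column position as a covariate. Canada's closeness exceeded that between the areas by 0.0796 at a pseudocount of 0.1. Genes on in one area and at 0 in the other numbered 51 to 490 with 1 accession left out. Calls against China ran from 3455 to 5942 for the Mediterranean and from 279 to 1710 for Canada. None of the 8 named genes that were called changed direction. For the single named genes, 337 values stayed on their side of the threshold with no change of sign beyond the SE, 30 lost the call, 4 gained it, and 7 values that were not called changed sign by more than the SE. The causes were not tested. With 5 accessions per area, each of 1 library, changes under about 2-fold were rarely bounded. No paired analysis was possible because replicate numbers follow accession order only.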

Other observations

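Called genes were spread over the genome. On chromosomes 1 to 8, as the gene IDs number them, 5.07% (chromosome 6) to 6.54% (chromosome 8) of the tested genes were called, and on unplaced sequences 194 of 2015 were called (9.63%). Of the genes called higher in the Mediterranean, 8.55% were followed in ID order by another called higher, against 3.83% of all tested genes called so, and of those called lower 11.6% by another called lower, against 2.17%. In all, 17 runs held 3 or more such genes, the longest 4. Asa2G00300.1, on in Canada only, lay within a run of 3 genes that were lower in the Mediterranean. The 15 and 36 genes listed at 0 in one area did not neighbour each other by ID, and were spread over several chromosomes. Of the 36 genes on in Canada, 10 were on chromosome 2, which holds 13.7% of the tested genes. Of the 15 on in the Mediterranean, 5 were on chromosome 7, which holds 14.1%. Each was the chromosome with the most genes of its set, picked after the values were seen, and neither share was tested. Chromosome 2 held 0 of the 15, and chromosome 7 held 4 of the 36.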
